A study of Mus musculus with 22 samples.

Results

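The STAT5 and growth hormone axis was followed here through 10 genes in mouse striatum and white adipose tissue (WAT). The genes were chosen by name, with earlier results of these data known, and read from the count table of each tissue. All 10 were found on a single row in both tables, among 55327 named rows for striatum and 47628 for WAT. They are the transcription factors Stat5a and Stat5b, the kinase gene Jak2, the receptor genes Ghr and Prlr, the growth factor gene Igf1 with its receptor gene Igf1r and its binding protein gene Igfbp3, and the feedback inhibitor genes Socs2 and Cish.

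RNA-seq was performed on 22 libraries of wild-type C57BL/6J mice labelled as male and 8 weeks old. The libraries labelled PTU came from animals made hypothyroid by 2 weeks of propylthiouracil, a drug that blocks thyroid hormone synthesis, and the others from animals given thyroid hormone (TH), which the study describes as a single injection of T3 and T4. WAT had 4 PTU libraries, 4 taken 6 h after TH and 4 taken 24 h after TH, and striatum had 2 PTU libraries (replicates 3 and 6), 4 taken at 12 h and 4 at 24 h. The labels of the TH libraries do not mention PTU; the study lists PTU food for its WAT animals and no hypothyroidism procedure for striatum, so for striatum only the labels say that controls were treated. The fat depot is not named, both tissues are mixtures of cells, and nothing states whether libraries of a group came from separate animals, so p-values measure the spread between these libraries. In bulk tissue, fewer cells of a type and less RNA per cell cannot be told apart.

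Growth hormone binds its receptor on the cell surface, which activates the kinase JAK2 held on the receptor tail. JAK2 phosphorylates STAT5A and STAT5B, which pair, enter the nucleus and bind DNA sites with the letters TTCNNNGAA. In liver and fat this route drives Igf1 transcription, and it also induces Cish and Socs2, whose products damp the signal. The prolactin receptor uses the same kinase and the same STAT proteins. The JAK-STAT step acts on proteins that already exist, so transcript counts measure the supply of these components and the output at target genes, not phosphorylation.

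Total counts were 17.29 to 26.95 M per WAT library and 8.04 to 10.15 M per striatum library. Values below are normalised counts, that is counts scaled to the mean effective library size of the tissue, and calls required a Benjamini-Hochberg adjusted p below 0.05 in edgeR's quasi-likelihood F test over all genes tested. Hr, a classical TH target, was called at every time against PTU in both tissues, with means of 131 in WAT PTU libraries, 1554 at 6 h and 2406 at 24 h, and of 48.1, 271 and 310 in striatum. Some libraries stood apart. In 6 of the 10 striatum libraries (PTU replicate 6, replicate 1 at 12 h and all 4 at 24 h) Xist was at 22070 or more and the summed Y-linked genes at 6.84 or less, against the male label. Striatum replicate 2 at 24 h held 31.4 counts of the striatal gene Drd2 where the others held 832 to 2151. Among WAT libraries the muscle gene Acta1 ran from 376.5 to 127312 and the epithelial gene Krt14 from 0 to 1870.

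The transcript starts of the members were searched for letters that TH receptors or STAT5 bind. RefSeq promoter windows (250 bases before to 50 after a start, GRCm38.p6) were held for 9 of the 10 members, 14 windows in all. A TTCNNNGAA match stood in windows of Cish and Prlr only; it occurs in 8.3% of the 32851 windows of that length. The TH receptor half-site AGGTCA, searched on both strands, stood in 5 windows of Stat5a, Stat5b, Igf1 and Igf1r and in 16.3% of all windows. No member window held 2 half-sites spaced as a direct repeat, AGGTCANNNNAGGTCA, which occurs in 0.0152% of windows. The stretches around the matches of both STAT5 genes, Cish and Prlr are shown, with the matched letters in capitals. The half-site of Stat5b and that of the downstream Stat5a start are read on the opposite strand. The half-sites of Igf1 and Igf1r, which begin 161 and 86 bases before the start, are not printed.
Stat5a, upstream start, chr11:100859581-100859655, plus strand, half-site starting 46 bases before the start: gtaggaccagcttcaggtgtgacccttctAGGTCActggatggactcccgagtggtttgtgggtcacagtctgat
Stat5a, downstream start, chr11:100860428-100860457, plus strand, 44 bases before: atcggaggcagcTGACCTttgaggaggaaa
Stat5b, internal start, chr11:100822571-100822670, minus strand, 35 bases before: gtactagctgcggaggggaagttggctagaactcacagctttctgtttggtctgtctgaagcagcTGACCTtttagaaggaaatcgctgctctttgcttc
Cish, chr9:107296654-107296683, plus strand, a pair of TTCNNNGAA sites beginning at the start itself: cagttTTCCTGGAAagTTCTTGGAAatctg
Prlr, second of 3 starts, chr15:10223750-10223849, plus strand, 110 bases before: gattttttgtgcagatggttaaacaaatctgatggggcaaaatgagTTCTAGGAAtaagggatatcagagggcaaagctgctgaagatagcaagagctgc
The pair of sites in Cish was separated by 2 bases. Matches are a description of the letters and not of binding.

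Per kb of merged exon and per M counts, Ghr was the most abundant member in WAT, with a median over the 12 libraries of 53.8 (39.8 to 98.4), and its lowest library lay above every library of the next gene, Igf1 (median 17.8). Igfbp3, Stat5b, Stat5a and Jak2 followed with overlapping ranges and medians of 12.0, 9.95, 9.28 and 8.22. Cish and Socs2 overlapped at medians of 1.64 and 1.60, and Igf1r and Prlr overlapped at 0.682 and 0.614. In striatum the order was different on the same scale. Jak2 had the highest median, 8.97, followed by Igfbp3, Stat5b, Socs2, Igf1 and Igf1r between 6.38 and 3.17, each range overlapping the next. Cish and Ghr stood at 1.74 and 1.32, and Stat5a (0.509) and Prlr (0.105) were lowest. The order of genes depends on the length used. Merged exons of Socs2 span 9531 bases against 2222 in its longest coding transcript. Those of Stat5a span 7133 against 3888, and those of Jak2 5030 in both. Levels per transcript length were not computed, and neighbouring ranks may change with them. The WAT table held 234 pairs of near-identical rows, against 0 for striatum, so reads that fit several genes may have been treated differently, and levels were not tested between tissues.

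In WAT at 6 h, 5 of the 10 members were called, against 7.23% of all 17928 genes tested. Both STAT5 genes and Jak2 rose, and Ghr and Igf1 fell. At 24 h, 6 of 10 were called against 17.1% of genes tested, the same 5 in the same directions together with a fall of Prlr. Libraries of TH and PTU did not overlap for 6 members at 6 h (13.9% of all genes) and for 5 at 24 h (19.3%). The median log2 change over the 10 members was -0.18 at 6 h and 0.00 at 24 h, beside -0.03 and 0.00 over all genes. The 2 contrasts share the PTU libraries. As the members were chosen with earlier results of these data known, their counts beside the shares of all genes are a description and no test.

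**Figure D1:**
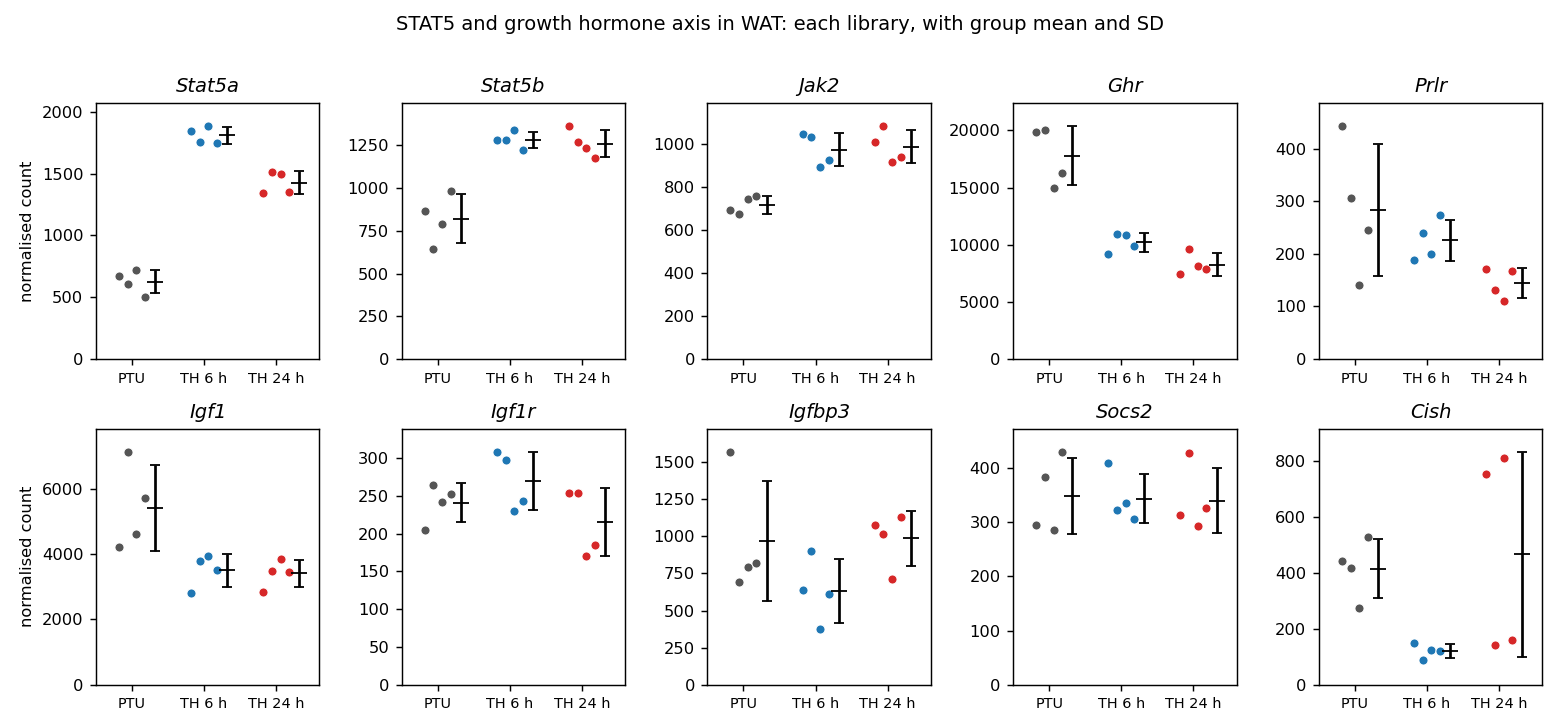
Normalised counts (vertical axes, from 0) of the 10 members in each WAT library, grouped as PTU, TH 6 h and TH 24 h, with the group mean and SD (n = 4) at the right of each group. Stat5a, Stat5b and Jak2 lie higher in all 8 TH libraries than in any PTU library and Ghr and Igf1 lower, while Cish at 24 h splits into 2 libraries above 750 and 2 below 160.

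Stat5a encodes the form first known from mammary gland. It lies on chromosome 11 (GRCm38, 100859351 to 100885169, plus strand), directly beside Stat5b on the opposite strand. PTU libraries held 672.5, 607, 722 and 502 normalised counts, the 6 h libraries 1847, 1760, 1885 and 1748, and the 24 h libraries 1348, 1512, 1500 and 1355. The 3 groups did not overlap at all. The gene was 2.89-fold higher at 6 h (log2 change 1.53 ± 0.10 SE, adjusted p = 5.22e-06) and 2.28-fold higher at 24 h (1.19 ± 0.10, adjusted p = 2.37e-05), and it was called in all 20 alternatives at both times. The difference of 24 h from 6 h was -0.34 ± 0.10, which did not pass (adjusted p = 0.0616). That difference passed in the fit without PTU replicate 1 (0.0366), without PTU replicate 3 (0.0469) and without PTU replicate 4 (0.0147), with DESeq2 (0.0179) and with the 2 groups alone (0.00806).

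Stat5b encodes the form that dominates the response to growth hormone in liver. It lies on chromosome 11 (100780731 to 100850724, minus strand). PTU libraries held 864, 645, 788 and 985 normalised counts, the 6 h libraries 1282, 1279, 1337 and 1222, and the 24 h libraries 1362, 1268, 1235 and 1174. Every TH library exceeded every PTU library and the TH groups overlapped. The rise was 1.56-fold at 6 h (0.64 ± 0.11, adjusted p = 0.00458) and 1.54-fold at 24 h (0.62 ± 0.11, adjusted p = 0.00279), and all 20 alternatives kept both calls. The genes are near copies in part: 15.8% of the 50-base stretches of the longest Stat5a transcript and 11.8% of those of Stat5b occur in the other. How reads from those stretches were assigned is not stated, and their part in either rise was not tested. The last 72 exonic bases of Stat5a also overlap Stat3 on the other strand. Stat3 had means of 1516, 1852 and 1796 in the PTU, 6 h and 24 h groups and was not called at either time (adjusted p = 0.299 and 0.337).

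Jak2 encodes the kinase on which the growth hormone and prolactin receptors depend. It lies on chromosome 19 (29251828 to 29313080, plus strand). PTU libraries held 693, 675, 744 and 761 normalised counts, the 6 h libraries 1049, 1033, 892 and 926, and the 24 h libraries 1012, 1084, 916 and 939. All 8 TH libraries lay above all PTU libraries. Jak2 rose 1.36-fold at 6 h (0.44 ± 0.09, adjusted p = 0.00932) and 1.38-fold at 24 h (0.46 ± 0.09, adjusted p = 0.00351). With the summed epithelial genes as a covariate the 24 h call was lost (adjusted p = 0.0553) at nearly the same size, 0.44. The sums at 24 h (85.2 to 149) lay below all those of PTU libraries (292 to 710), so this fit cannot separate them from time.

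Ghr encodes the growth hormone receptor. It lies on chromosome 15 (3317760 to 3583492, minus strand). PTU libraries held 19895, 20055, 14969 and 16238 normalised counts, the 6 h libraries 9208, 10925, 10860 and 9894, and the 24 h libraries 7408, 9656, 8137 and 7859. All 8 TH libraries lay below all PTU libraries. The gene was 1.74-fold lower at 6 h (-0.80 ± 0.13, adjusted p = 0.0028) and 2.15-fold lower at 24 h (-1.11 ± 0.13, adjusted p = 0.000164), with both calls kept in all 20 alternatives. Some adipocyte markers were also lower at 24 h. Of the 7 measured, 0 were called at 6 h and 3 were called lower at 24 h, and their summed level ran from 514803 to 671066 in PTU libraries, from 484865 to 626481 at 6 h and from 373886 to 471890 at 24 h. Plin1, which coats the lipid droplet, had means of 22358 and 22322 in the PTU and 6 h groups and 12068 at 24 h. Adipoq, the adipokine gene, held 69711 to 95132 in PTU libraries, 55898 to 66047 at 6 h and 32295 to 36565 at 24 h, so that its 6 h libraries also lay below all PTU libraries (-0.35 ± 0.12, adjusted p = 0.104). Cidec had means of 43647 in PTU libraries and 11977 at 24 h. Lep, Cfd, Fabp4 and Lipe changed less, from means of 3669, 170075, 243078 and 23887 to 3558, 138359, 212928 and 20409 at 24 h. At 6 h the means of Lep (4911), Cfd (184528) and Lipe (30527) lay above PTU, and those of Fabp4 (206037) and Cidec (36970) below. Brown adipocyte markers were higher, with 3 of 7 called at 6 h and 5 of 7 at 24 h, and their summed level ran from 1723 to 3113 in PTU libraries, from 5141 to 9933 at 6 h and from 7645 to 22109 at 24 h. The part of these markers in the values of Ghr and the other members was not tested.

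Prlr encodes the prolactin receptor, which in fat is far less abundant than Ghr. It lies on chromosome 15 (10177238 to 10349180, plus strand). PTU libraries held 443, 306.5, 142 and 245 normalised counts, the 6 h libraries 188, 240.5, 199 and 274, and the 24 h libraries 171, 131, 110 and 167. The PTU libraries spread widely and their lowest lay inside the 24 h range. The 24 h value was 1.96-fold lower than PTU (-0.97 ± 0.28, adjusted p = 0.0337), and the 6 h value of -0.33 ± 0.28 did not pass (adjusted p = 0.48). The call rested on single libraries: it was lost without PTU replicate 1 (-0.67, adjusted p = 0.0736), without PTU replicate 2 (0.0822) and without replicate 1, 2, 3 or 4 at 24 h (0.0502, 0.0828, 0.0986 and 0.0519), and also with the 2 groups alone (0.0729) and with the epithelial covariate (0.111). Markers of stratified or mammary epithelium were lower at the same time. Their summed level was 292 to 710 in PTU libraries, 215 to 3196 at 6 h and 85.2 to 149 at 24 h, and 3 of the 7 were called lower at 24 h (median log2 change of the list -4.80). With their sum as a covariate the Prlr change was -1.13. As the sums of the 24 h and PTU groups did not overlap, this fit cannot separate them from time. The part of these markers in the Prlr change was not tested. Prlr shares 203 exonic bases with Gm21973 on the same strand.

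Igf1 encodes insulin-like growth factor 1, the classical product of growth hormone action. It lies on chromosome 10 (87858265 to 87937042, plus strand). PTU libraries held 4203, 7127, 4606 and 5729 normalised counts, the 6 h libraries 2801, 3774, 3954 and 3504, and the 24 h libraries 2846, 3482, 3862 and 3445. All TH libraries lay below all PTU libraries, and the 2 TH groups overlapped. Igf1 was 1.54-fold lower at 6 h (-0.63 ± 0.17, adjusted p = 0.043) and 1.59-fold lower at 24 h (-0.67 ± 0.17, adjusted p = 0.0177). The 6 h call is close to the threshold. It was lost, with adjusted p between 0.0507 and 0.119, in 10 of the 12 fits that left out a single library, all but those without PTU replicates 1 and 3, while the log2 change stayed between -0.72 and -0.47. It was lost also with the 2 groups alone (-0.60, adjusted p = 0.0928) and with the epithelial covariate (-0.56, adjusted p = 0.106), and so passed in 8 of 20 alternatives. The 24 h call was lost without PTU replicate 2 (-0.51, adjusted p = 0.0532), without replicate 1 at 24 h (-0.59, adjusted p = 0.0548) and with the epithelial covariate (-0.81, adjusted p = 0.0534). The epithelial sums of the 24 h and PTU groups did not overlap, so the last fit cannot separate them from time.

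Igf1r and Igfbp3 were not called at any time in WAT. Igf1r, the receptor for IGF1, had means of 241, 269 and 216 normalised counts in the PTU, 6 h and 24 h groups, with changes against PTU of 0.16 ± 0.16 and -0.16 ± 0.16. Igfbp3, the main IGF carrier of serum, had 1567 in PTU replicate 1 and 691 to 823 in the other PTU libraries. Its 6 h libraries held 374 to 898.5 and its 24 h libraries 713 to 1130, so that all groups overlapped. Its changes against PTU were -0.62 ± 0.29 at 6 h (adjusted p = 0.197) and 0.02 ± 0.28 at 24 h.

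The feedback inhibitors, both direct STAT5 targets, differed from each other. Socs2 on chromosome 10 (95385362 to 95417180, minus strand) had group means of 348, 343 and 340 normalised counts, with changes of -0.02 ± 0.16 and -0.03 ± 0.16 against PTU. Its libraries ran from 286 to 429 without order by group. In its longest transcript 18.4% of 50-base stretches occur in other genes, all of them in Gm9847.

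Cish on chromosome 9 (107296026 to 107302784, plus strand), whose start carries the pair of STAT5 letters printed above, differed between times and between libraries. PTU libraries held 440, 417, 273 and 528 normalised counts and the 6 h libraries 149, 86.9, 124 and 122. The 24 h libraries held 752, 142, 810 and 159. All 6 h libraries lay below all PTU libraries, and the 24 h libraries fell into a pair above every PTU library and a pair within or just above the 6 h range. At 6 h Cish was 3.45-fold lower than PTU (-1.79 ± 0.51), just short of the threshold (adjusted p = 0.0541). Leaving out PTU replicate 3 (adjusted p = 0.0477) or replicate 2, 3 or 4 at 24 h (0.024, 0.0493 and 0.0369), DESeq2 (0.0161), the fit without a filter (0.0202) and the 2 groups alone (0.0024) brought it past.

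Cish was 3.88-fold higher at 24 h than at 6 h (1.96 ± 0.51, adjusted p = 0.0386), the 1 member called in that comparison, where 7.41% of all genes were called. This call was lost without replicate 1, 2, 3 or 4 at 6 h (adjusted p = 0.0749 to 0.0999), without replicate 1 at 24 h (1.62, adjusted p = 0.0982) and without replicate 3 at 24 h (1.55, adjusted p = 0.102). It was lost also with the 2 groups alone (0.0505), the muscle covariate (0.131) and the epithelial covariate (0.355), whose values did not overlap between these times. Against PTU the 24 h value was 0.17 ± 0.48 (adjusted p = 0.836). Cish overlaps 2 transcripts on the other strand, Gm17040 over 261 and Gm17041 over 479 exonic bases, and the strand setting of the counting was not stated, so their reads cannot be told apart.

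**Figure D2:**
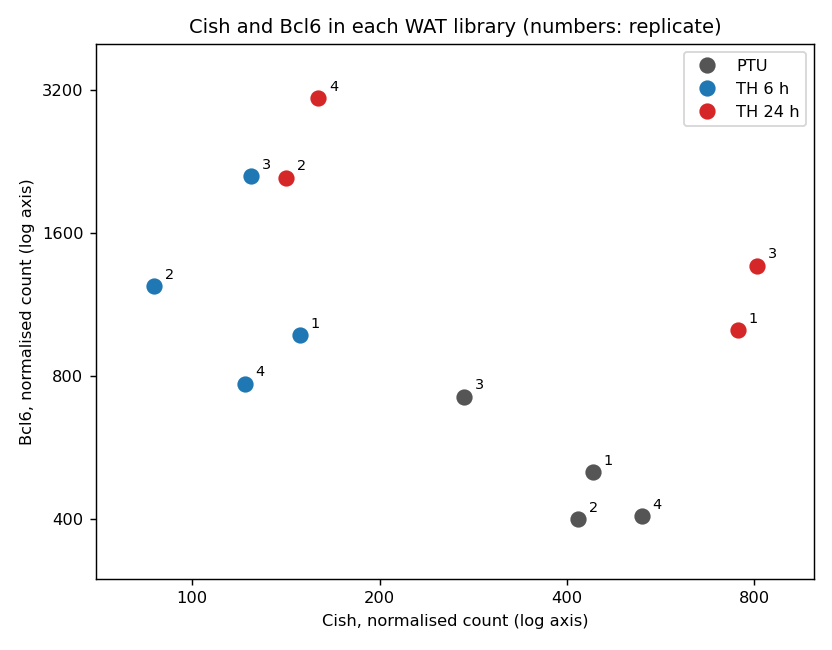
Cish (horizontal) against Bcl6 (vertical) in each of the 12 WAT libraries, as normalised counts on log axes, with the replicate number beside each point. PTU libraries lie at the lower right, the 6 h libraries at the left, and the 24 h libraries in 2 pairs, replicates 1 and 3 with Cish above 750 and replicates 2 and 4 with Cish below 160 and Bcl6 above 2000.

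Bcl6, a repressor whose gene is turned down by STAT5 in liver, was set beside Cish because it belongs to the list of reported STAT5 or growth hormone responsive genes, and the pairing was looked at after the values were seen. PTU libraries held 502, 400, 725 and 407 normalised counts of Bcl6, the 6 h libraries 976, 1240, 2107 and 772, and the 24 h libraries 1002, 2093, 1367 and 3074. The 24 h libraries with high Cish, replicates 1 and 3, had the lower Bcl6 counts of their group, and those with low Cish the higher. For Igf1, replicates 1 and 3 held the lowest and the highest count at 24 h. For Socs2 they held 313.5 and 293, below the 427 and 325 of replicates 2 and 4. No test was made, as 4 libraries cannot carry one. Bcl6 rose 2.50-fold at 6 h (1.32 ± 0.37, adjusted p = 0.0499) and 3.70-fold at 24 h (1.89 ± 0.37, adjusted p = 0.00509). The 24 h call stood in all 20 alternatives and the 6 h call in 8.

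The other genes of the pathway were read from 5 lists holding 75 genes. At 6 h, 5 of the 65 tested were called (7.69%) and at 24 h 15 of 65 (23.1%), beside the 7.23% and 17.1% of all genes. Most calls lay in the list of reported STAT5 or growth hormone responsive genes, with 3 of 14 tested at 6 h, all higher, and 9 of 14 at 24 h, 7 higher and 2 lower. Its median log2 change was 0.14 at 6 h and 0.62 at 24 h, beside -0.03 and 0.00 over all genes. The list holds genes that STAT5 induces and genes that it represses, so a count of rises is no measure of STAT5 activity. The lists too were chosen with earlier results of these data known, so these shares are a description.

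**Figure D3:**
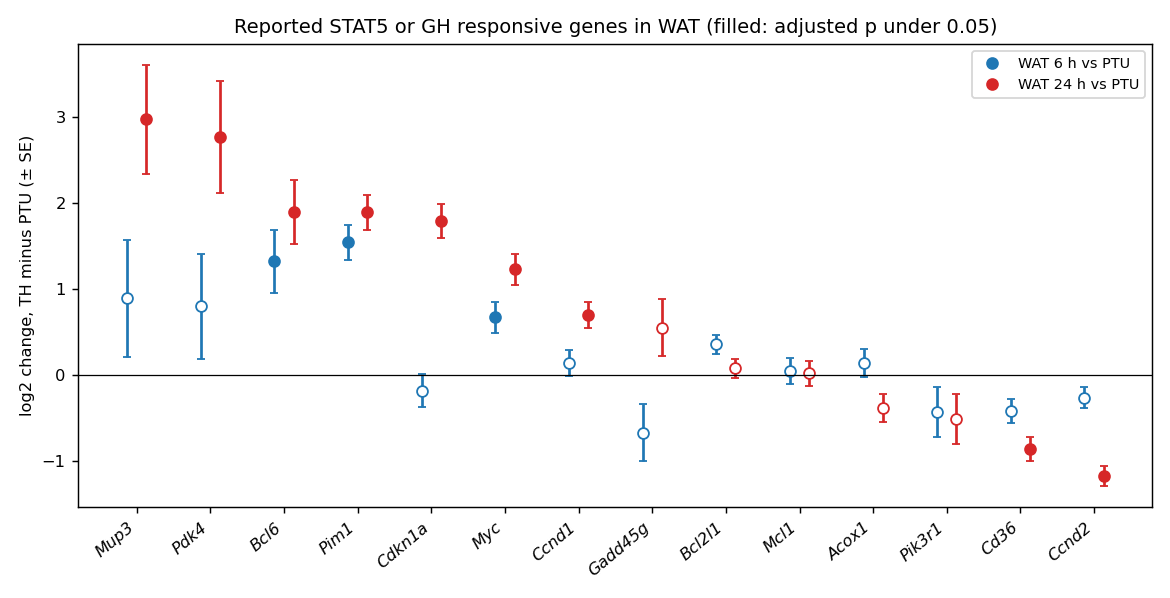
Log2 change against PTU (vertical, ± SE) of the 14 tested genes reported to respond to STAT5 or growth hormone, in WAT at 6 h (blue) and 24 h (red), ordered by the 24 h value; filled points passed an adjusted p of 0.05. Mup3, Pdk4, Bcl6, Pim1, Cdkn1a, Myc and Ccnd1 rose at 24 h and Cd36 and Ccnd2 fell.

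Pim1, which encodes a survival kinase induced by cytokines, rose 2.90-fold at 6 h (1.54 ± 0.20, adjusted p = 0.000716) and 3.71-fold at 24 h (1.89 ± 0.20, adjusted p = 8.68e-05). Its PTU libraries held 235 to 360 normalised counts, the 6 h libraries 667 to 1132 and the 24 h libraries 864 to 1399. Pim1 was called in all 20 alternatives at both times. Myc, the growth regulator, had means of 233, 369 and 547, and was higher than PTU by 0.67 ± 0.18 early (adjusted p = 0.0415) and by 1.23 ± 0.18 late (adjusted p = 0.000747). The early call of Myc stood in 8 of 20 alternatives and the late call in all 20. Pdk4, which restrains glucose oxidation, rose by 2.77 ± 0.65 at 24 h (adjusted p = 0.012), with 2627, 17060, 18163 and 3946 normalised counts in the 4 libraries against 769 to 2444 in PTU libraries. Its 24 h libraries split as well, but in other pairs than those of Cish. The summed brown adipocyte markers split with Pdk4, at 7645, 18617, 22109 and 7976 in replicates 1 to 4, and their part in its values was not tested. Mup3, a major urinary protein gene, had 33.2 to 51.1 counts at 24 h and 0 to 10.8 in PTU libraries, from a family of near-identical copies among which reads may be shared. It was also used as a hepatocyte marker. Of 4 such markers tested in WAT, 2 were called higher and 1 lower at 24 h. Means in PTU and 24 h libraries were 55.9 and 108 for Serpina1a and 1771 and 986.5 for Alb. The part of such cells in the Mup3 counts was not tested.

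The remaining 5 calls of this list at 24 h are named after their values were seen. Cdkn1a, a brake on the cell cycle, rose 3.46-fold (1.79 ± 0.20, adjusted p = 0.00011) from a mean of 475 to 1643, and Ccnd1, a cyclin of the G1 phase, rose 1.62-fold. Its relative Ccnd2 fell by 1.17 ± 0.12 on the log2 scale (adjusted p = 5.86e-05), from 4047 to 1793. Cd36, a fatty acid transporter, fell from a mean of 51137 to 28137, and 3 of the 7 adipocyte markers were also called lower at that time. Myc is given above.

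Among the IGF genes, Igfals changed most. It encodes the acid-labile subunit that holds IGF1 and IGFBP3 in the large serum complex, and it is induced by growth hormone in liver. PTU libraries held 911, 1013, 957 and 670 normalised counts, the 6 h libraries 419, 488, 613 and 553, and the 24 h libraries 136, 147, 370 and 196. The groups followed each other without overlap. At 24 h Igfals was lower than PTU by 2.07 ± 0.28 on the log2 scale (adjusted p = 0.000444, all 20 alternatives) and lower than at 6 h by 1.29 ± 0.27 (adjusted p = 0.0166). Of 15 tested genes of this list, 2 were called at 6 h (Insr higher by 0.29 ± 0.08, Igfbp6 lower with a log2 change of -0.73 ± 0.19) and 3 at 24 h (Igfals, Igf2r with -0.44 ± 0.11, and Grb14, which binds the insulin receptor, with 1.14 ± 0.27). The 6 h calls stood in 8 of 20 alternatives for Insr and 11 for Igfbp6, and the 24 h calls of Igf2r and Grb14 in 19 each. The insulin receptor gene Insr turned back from a mean of 2057 at 6 h to 1435 at 24 h (-0.52 ± 0.08, adjusted p = 0.00269).

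Little else of the signalling machinery was called in WAT. Of 8 other STAT and Janus kinase genes, none passed early and 2 did at 24 h, Stat6 (0.58 ± 0.13, adjusted p = 0.00844) and Stat2 (0.38 ± 0.11, adjusted p = 0.034, 8 of 20 alternatives). Of 18 inhibitors and adaptors, only the phosphatase gene Ptpn1 was called at 24 h (0.45 ± 0.12, adjusted p = 0.0206, 15 of 20 alternatives). From 6 to 24 h only Socs6 was called in that list (-0.39 ± 0.10, adjusted p = 0.039, 10 of 20 alternatives). The 10 tested genes of other cytokine receptors and ligands gave no call at either time. Transcripts of the hormones themselves were at the floor, with 1.11 to 7.22 normalised counts of Gh in WAT libraries and at most 0.821 of Prl.

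In striatum 0 of the 10 members were called at 12 h, at 24 h or between the times, where 0.96%, 0.348% and 0.0% of 15827 genes were called. The libraries of TH and PTU did not overlap for 5 members at 12 h (36.4% of all genes) and for 3 at 24 h (18.2%). Of all 15827 genes, 3197 had an unadjusted p under 0.05 at 12 h, 1524 at 24 h and 2309 between the times. DESeq2 called 860, 203 and 261 genes in the same order. For the members, unadjusted p was under 0.05 for 4 of 10 at 12 h (Stat5a, Igf1, Jak2 and Socs2). It was so for Stat5a alone at 24 h, and for Stat5b, Prlr and Socs2 between the times. DESeq2 called 0 members at 12 h, Stat5a at 24 h and 0 between the times. High Xist was found in PTU replicate 6, replicate 1 at 12 h and all 4 libraries at 24 h, so this difference is mixed with time. With the summed Y-linked genes as a covariate, 55 genes were called at 12 h, 7 at 24 h and 0 between the times, with 0 members in each.

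**Figure D4:**
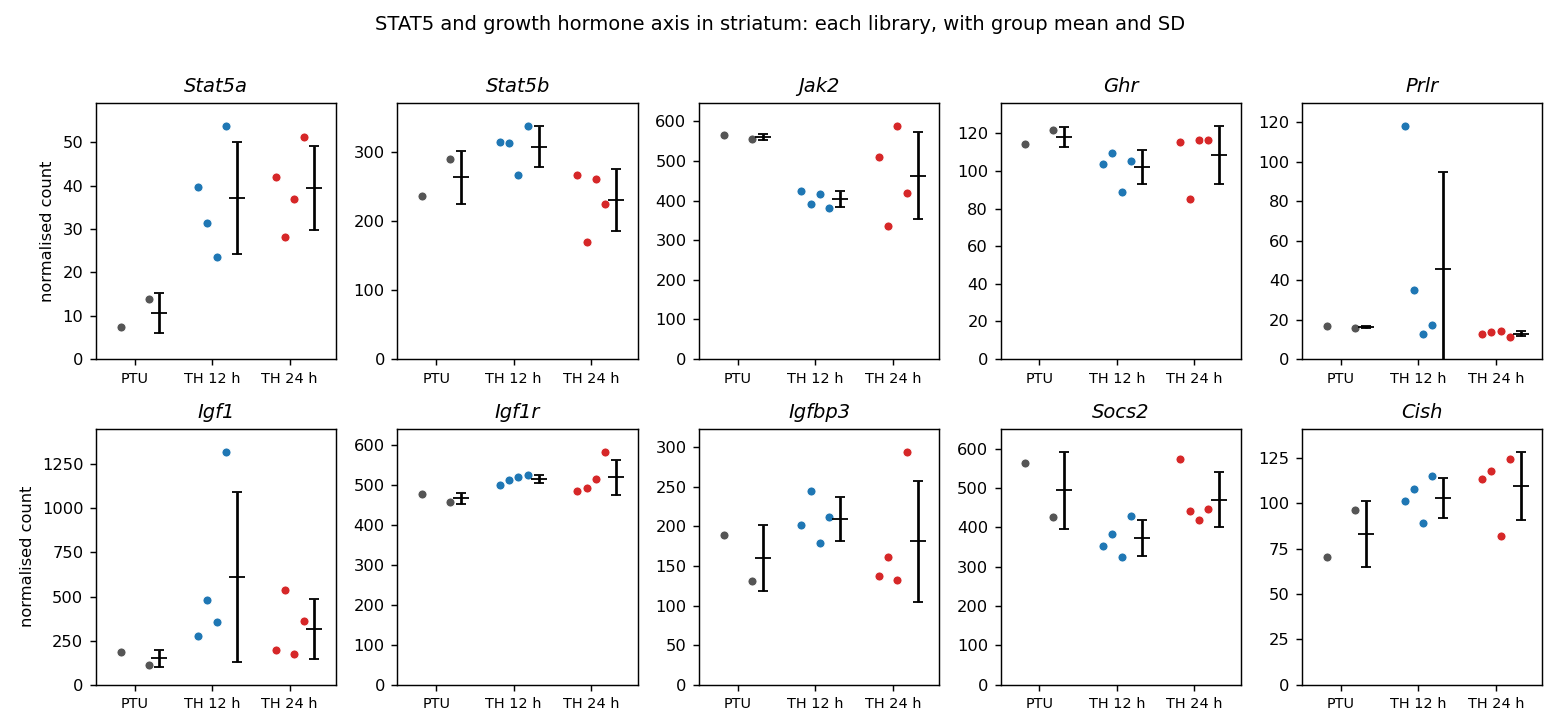
Normalised counts (vertical axes, from 0) of the 10 members in each striatum library, grouped as PTU (n = 2), TH 12 h and TH 24 h (n = 4 each), with the group mean and SD at the right of each group; the SD of Prlr at 12 h reaches below 0 and is cut there. Stat5a lies higher in all 8 TH libraries than in both PTU libraries, and single libraries stand high for Igf1 and Prlr at 12 h.

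Stat5a was near the limit of detection in striatum, with 7 and 14 raw counts in the PTU libraries. The normalised counts were 7.34 and 13.8 in PTU libraries, 39.7, 31.3, 23.6 and 53.7 at 12 h, and 42.0, 28.03, 36.9 and 51.2 at 24 h. All TH libraries lay above both PTU libraries. The log2 change was 1.79 ± 0.42 at 12 h and did not pass (adjusted p = 0.0686). At 24 h it was 1.89 ± 0.42 (adjusted p = 0.115). At 12 h the call was gained without replicate 2 at 24 h (adjusted p = 0.0268), the library with little Drd2, with no filter (0.0392) and with the 2 groups alone (0.0355). At 24 h it was gained with no filter (0.0453) and with DESeq2 (0.0107).

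For Jak2, PTU libraries of striatum held 566 and 556 normalised counts, the 12 h libraries 425, 392, 418 and 380, and the 24 h libraries 511, 335, 588 and 419. The 12 h libraries lay below both PTU libraries and the 24 h libraries overlapped them. The change at 12 h was -0.47 ± 0.17 (adjusted p = 0.167), which passed with the 2 groups alone (0.0141) and without replicate 2 at 24 h (0.0329), and that at 24 h was -0.28 ± 0.17 (adjusted p = 0.662). Socs2 had means of 494, 372 and 470 in the PTU, 12 h and 24 h groups (-0.41 ± 0.16 at 12 h, adjusted p = 0.192).

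Igf1 and Prlr each had 1 library far above the others at 12 h. Igf1 held 184 and 115 normalised counts in PTU libraries, 278.5, 482.5, 353.5 and 1319 at 12 h, and 198, 538, 173 and 361 at 24 h. Its log2 change at 12 h was 2.03 ± 0.68 (adjusted p = 0.139), and 1.31 without replicate 4 at 12 h (adjusted p = 0.196). The summed markers of cortical excitatory neurons were higher at the same time. They ran from 5655 to 8703 in PTU libraries, 10806 to 15725 at 12 h and 7254 to 25261 at 24 h. In replicates 1 to 4 at 12 h the sum was 10806, 15725, 15694 and 14198. Within the list, Lamp5 had a lower mean at 12 h (803 against 1216) and Rorb a level one (292.6 against 297.5), while the other means were higher. The summed markers of striatal projection neurons were lower at 12 h (16454 to 27620 against 31236 and 45569). Of the 8 cortical and 9 striatal markers tested, 0 were called at 12 h or 24 h. Their part in the Igf1 values was not tested. Prlr held 118 in replicate 1 at 12 h and 11.04 to 35.2 elsewhere. Its log2 change at 12 h was 1.48 ± 0.79 (adjusted p = 0.318), and 0.40 without that library, which did not pass either. The same library held 48.1 of the choroid plexus gene Ttr, against 0.907 to 24.1 elsewhere, while the summed level of the 8 choroid plexus markers was 226.5 in it, between the 202 and 296 of the PTU libraries, and 58.3 to 180 in the other TH libraries. The part of these cells in the Prlr value was not tested.

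No other member passed in striatum under any of the alternatives run. Stat5b had means of 264, 308 and 231 in the PTU, 12 h and 24 h groups, and Ghr 118, 102 and 108. Igf1r had 456 and 476 in PTU libraries and 485 to 581.9 in TH libraries, with changes of 0.14 ± 0.09 and 0.15 ± 0.09 that did not pass. Igfbp3 and Cish had changes between 0.18 and 0.40 with errors of 0.20 to 0.30. Of the 59 pathway genes tested in striatum, 1 was called, Osmr at 12 h (-0.63 ± 0.13, adjusted p = 0.0483, called in 4 of 15 alternatives), which encodes a receptor chain for oncostatin M.

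**Figure D5:**
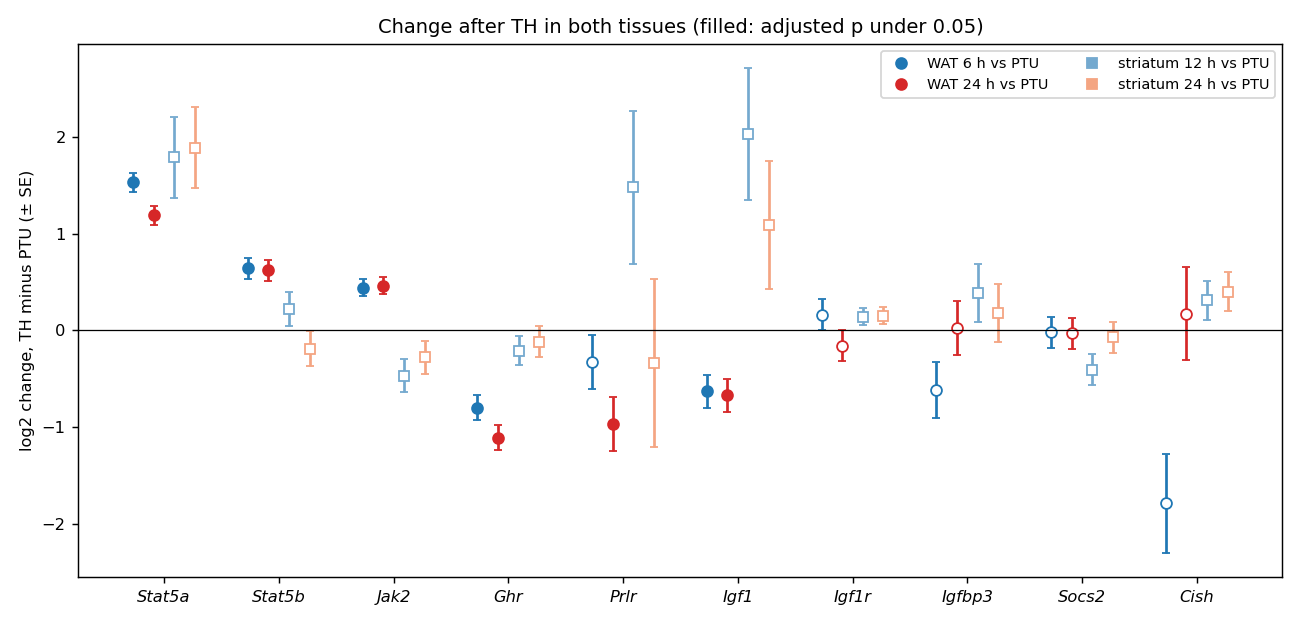
Log2 change of each member, TH minus PTU (vertical, ± SE), in WAT at 6 h and 24 h (circles) and striatum at 12 h and 24 h (squares), with filled symbols for an adjusted p under 0.05. Stat5a is above 1 in all 4 comparisons, whereas Jak2 is above 0 in WAT and below 0 in striatum.

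The response at 24 h, the time both tissues share, was compared between tissues as an interaction in a fit of all 22 libraries. All 4 striatum libraries at 24 h and striatum PTU replicate 6 had high Xist, and all 12 WAT libraries had low Xist. The tissue difference is therefore mixed with this one, and the interaction was not adjusted for it. The study lists PTU food for its WAT animals and no hypothyroidism procedure for striatum, so the treatment compared may differ as well. Depth, and possibly the handling of reads that fit several genes, also differed between the tissues. For 3 members the responses differed, against 5.14% of the 12766 genes tested. Stat5b responded higher in WAT by 0.82 ± 0.20 (adjusted p = 0.0226), Jak2 higher by 0.74 ± 0.18 (adjusted p = 0.0233) and Ghr lower, with a difference of -0.98 ± 0.20 (adjusted p = 0.00579). Each rested on the 2 striatum controls. Without striatum PTU replicate 3, Ghr (0.0566) and Jak2 (0.102) were lost, and without striatum PTU replicate 6, Stat5b (0.65, adjusted p = 0.217) and Jak2 (0.106) were lost. Jak2 was lost also without WAT PTU replicate 2 (0.0523) and with no filter (0.0549). With the 4 groups alone none of the 3 passed (adjusted p = 0.101, 0.0949 and 0.0509 in the order given). Stat5a had a difference of -0.70 ± 0.38 that did not pass (adjusted p = 0.313), and Igf1 had a difference of -1.75 ± 0.63 (adjusted p = 0.116) that passed without striatum replicate 4 at 12 h (-1.72, adjusted p = 0.0353).

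Genes whose pattern was most like that of a member were ranked by Pearson's r of log2 counts per M over the 12 WAT libraries, as a description. Nearest to Stat5a were Cipc (0.986), Lpin3 (0.977) and Slc1a5 (0.977). Slc1a5, a glutamine transporter, ran from 7803 to 9773 normalised counts in PTU libraries, from 31550 to 36230 at 6 h and from 22620 to 26550 at 24 h, the same order of groups as Stat5a. Nearest to Stat5b were Rbm38 (0.982), Cdc5l (0.958) and Setd7 (0.941), and nearest to Ghr were Nnt (0.975), Enpep (0.958) and Atg12 (0.953). Igf1 was nearest to Pcbd1 (0.944), Sec22b (0.935) and Lrrc9 (0.927). For Socs2 and Cish the nearest genes were less close, at most 0.846 (Dancr) and 0.88 (Lrrc1). The libraries share their groups, and correlations within groups were not computed. In striatum, over 10 libraries, Stat5a was nearest to Lbh (0.954), Kcnj10 (0.942) and Cltb (0.927), and Igf1 to Frzb (0.981), Tm6sf1 (0.978) and Gng4 (0.978). Frzb had its highest count, 529, in the library with the highest Igf1 count, which adds nothing to the r by which it was picked.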

How the data were processed

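For each tissue the authors deposited a table of raw counts, genes by libraries. They aligned reads to mm10 with Bowtie2 (2.2.6.2 in the submitters' processing notes), dropped alignments of quality below 10 and counted reads per gene; annotation release and strand setting are not given in the sources used here. Rows named as spreadsheet dates (14 in striatum, at most 0.201% of a library, and 15 in WAT, at most 0.0825%) were removed. The main test was edgeR 4.0.16 in R 4.3.3: TMM scaling, genes with a mean normalised count above 10, the 3 groups of a tissue in 1 fit, quasi-likelihood F test, two-sided, Benjamini-Hochberg adjustment; it was tested on simulated data. DESeq2 1.42.0 was an alternative, as were other size factors, no filter, fewer groups, marker covariates, removal of copied rows, a replicate block and leaving out each library. The SE of a log2 change is its size over the square root of F. Named genes were the members, up to 4 called genes by size in each list and contrast, and the 3 genes nearest to 6 members by correlation. Coordinates are from GENCODE M21 (GRCm38). Members and lists were chosen with earlier results of these data known.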

Additional observations from a re-analysis of the deposited data

Results flagged for a closer look

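Of 50 sets of 4 libraries examined, 2 held a library far from the other 3; chance alone marks about 1 set in 20. Ghr in striatum at 24 h had 85.2 normalised counts in replicate 2 and 115 to 117 in the others, and that library is the one with few striatal and many cortical transcripts. Igfbp3 in WAT without TH had 1567 normalised counts in PTU replicate 1 and 691 to 823 in the others. Without that library the log2 change of Igfbp3 at 6 h was -0.27 and that at 24 h was 0.36, neither past the threshold. The tissues differed in their response at 24 h for Stat5b (0.82), Ghr (-0.98) and Jak2 (0.74), as log2 values of WAT minus striatum in the test of the interaction. This difference is mixed with that of Xist and possibly with one of treatment, as described above.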

How the results depend on the processing

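The number of members called stayed within 1.5 times the reported number in 108 of 131 alternatives. At 12 h in striatum it went from 0 to 2 with the 2 groups alone, to 1 with no filter, and ranged from 0 to 2 with each library left out. At 24 h in striatum it was 1 with DESeq2 and 1 with no filter. In WAT at 24 h it fell from 6 to 3 with the epithelial covariate. Between 24 h and 6 h in WAT it went from 1 to 2 with DESeq2 and with the 2 groups alone, to 0 with the muscle covariate, the epithelial covariate and the replicate block, and ranged from 0 to 2 with each library left out. For the tissue difference it fell from 3 to 0 with the 4 groups alone and ranged from 1 to 4 with each library left out. The cause was not tested. The epithelial sums at 24 h lay below those of every PTU and 6 h library, so that covariate cannot be separated from time at 24 h.

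Of 1310 alternative values of the members' log2 changes, 43 lost and 21 gained a call. None of the called changes turned direction; 55 values changed sign, all of changes smaller than their SE. Libraries with the same number did not deviate together (r of -0.472 to 0.394 over 12 pairs in WAT and -0.395 to 0.267 over 6 pairs in striatum), so the numbers were not taken to pair them. With the replicate block, 5 members were called in WAT at 6 h and 6 at 24 h, and the call of Cish between the times was lost (1.75, adjusted p = 0.0839 in edgeR). No paired analysis was possible because the PTU libraries of striatum share only number 3 with the TH libraries, except between its 2 times, where 0 members were called. Depth limits Stat5a in striatum, with 7 and 14 counts in PTU libraries.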
